A study of Mus musculus with 6 samples.

Results

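The genes described here are those of the interferon response and of class I antigen presentation, chosen by name: receptors, STAT and IRF factors, RNA sensors, interferon-stimulated effectors and the machinery that loads peptides onto class I molecules. Of the 40 names, 39 matched a row among the 23349 genes of the deposited sheet, and Ifi27 was not analysed here. Of those 39, 32 averaged at least 1 TPM (a level per transcript, scaled to the same total in each library) over the libraries and were tested. RNA came from AtT-20 iPAM, mouse pituitary tumour cells of the corticotrope kind in which the line carries doxycycline-inducible PAM (peptidylglycine alpha-amidating monooxygenase, the copper-dependent enzyme that amidates peptides in the secretory pathway) and was kept under G418 and hygromycin. The 3 induced libraries came from cells given 4 micrograms per ml of doxycycline for 48 h, and the 3 basal libraries from cells of the same line without induction. Because all induced cells and no basal cells were induced with doxycycline, an effect of the drug and an effect of raised PAM cannot be told apart. No label states that replicate libraries stem from independent cultures, and p-values therefore reflect the spread of these libraries alone, which may be technical.

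Interferons are secreted proteins that bind paired receptors, through which JAK kinases activate STAT factors. STAT2 with IRF9 forms part of the complex that binds the interferon-stimulated response element (ISRE) in promoters and switches on antiviral effectors, while IRF3 and IRF7 drive the interferon genes themselves once RNA sensors have been triggered. The same signals raise the class I pathway, in which the TAP transporter carries peptides into the endoplasmic reticulum, tapasin bridges it to the class I heavy chain, and beta-2-microglobulin completes the molecule.

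Promoter sequence is shown for 5 members because their levels in the 2 conditions differ in kind: Cxcl10, B2m and Tap1, which stood lower in induced libraries, Ifitm2, which stood higher, and Isg15, whose groups overlapped. Each stretch is the 250 bases before the single start the promoter table gives for the gene, 5′ to 3′ on the gene's strand, from RefSeq on GRCm38.p6 (mm10), and capitals mark matches to the ISRE core, which is GAAA, then any 2 bases, then GAAA.
Cxcl10 (chr5:92348890-92349139, minus strand): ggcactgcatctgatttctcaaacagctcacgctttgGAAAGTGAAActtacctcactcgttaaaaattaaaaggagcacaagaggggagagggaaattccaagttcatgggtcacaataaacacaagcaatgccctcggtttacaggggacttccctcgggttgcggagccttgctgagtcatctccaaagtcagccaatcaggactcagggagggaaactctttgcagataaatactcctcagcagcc
B2m (chr2:122147437-122147686, plus strand): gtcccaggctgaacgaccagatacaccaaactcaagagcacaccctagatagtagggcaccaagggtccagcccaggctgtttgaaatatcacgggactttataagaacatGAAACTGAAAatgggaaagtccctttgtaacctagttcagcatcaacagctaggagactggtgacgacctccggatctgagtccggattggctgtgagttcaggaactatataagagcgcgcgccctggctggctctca
Tap1 (chr17:34187306-34187555, plus strand): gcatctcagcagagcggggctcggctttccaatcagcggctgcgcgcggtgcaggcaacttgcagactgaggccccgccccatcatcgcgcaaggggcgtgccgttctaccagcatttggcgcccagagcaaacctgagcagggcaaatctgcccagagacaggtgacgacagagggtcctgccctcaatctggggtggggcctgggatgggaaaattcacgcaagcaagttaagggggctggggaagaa
Ifitm2 (chr7:140955962-140956211, minus strand): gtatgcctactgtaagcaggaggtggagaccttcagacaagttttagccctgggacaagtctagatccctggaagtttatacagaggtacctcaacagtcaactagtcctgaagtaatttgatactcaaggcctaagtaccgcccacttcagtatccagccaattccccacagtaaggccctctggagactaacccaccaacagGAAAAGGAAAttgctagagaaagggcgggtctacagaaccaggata
Isg15 (chr4:156200819-156201068, minus strand): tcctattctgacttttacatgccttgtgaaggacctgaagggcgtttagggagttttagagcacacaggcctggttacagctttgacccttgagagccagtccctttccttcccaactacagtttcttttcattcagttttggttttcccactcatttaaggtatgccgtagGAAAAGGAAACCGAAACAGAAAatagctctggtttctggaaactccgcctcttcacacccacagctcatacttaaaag
The Isg15 stretch holds 3 matches that overlap each other and begin at -78, -72 and -66 from the start. The match begins at -213 in Cxcl10, -139 in B2m and -46 in Ifitm2. For Ifitm2 that start is internal: the annotated gene spans 140954837 to 140959686 on the minus strand, and the stretch lies inside it. Tap1 has no match in these letters. Its start lies 226 bases from that of Psmb9, an immunoproteasome subunit gene transcribed the other way, so the 300-base windows of both genes (250 before and 50 after the start) share 275 bases. Over the windows of all members in the RefSeq table, 14 of 33 (42.4%) held the ISRE core on either strand, against 3.99% of the 27025 genes in the table. The motif TTCNNNGAA, the GAS form bound by STAT dimers, occurred in 11 of 33 members (33.3%) and in 9.55% of all genes. A GAS match and an ISRE match shared bases in Bst2 and Ifitm3. These genes were chosen as interferon targets, so the shares describe the choice. The 10 tested members with an ISRE match had a median log2 difference of -0.20 and the 18 without one -0.17.

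Among the 32 tested members, those with the lowest induced values relative to basal ones came from several steps of the pathway. Beta-2-microglobulin, the transporter gene Tap1, the chemokine Cxcl10, the sensor Dhx58 and the factor Irf7 stood 1.70-fold to 2.36-fold lower in mean level in induced libraries, each with groups that did not overlap, as was so for 13 of 32 members (40.6%, against 21.6% of all genes). The class I heavy chains H2-K1 and H2-D1, Tap2, the sensor Ddx58 and Isg15 differed by at most 1.14-fold. Oasl1, at low means of 1.66 TPM in induced and 1.09 TPM in basal libraries, stood 1.52-fold higher. Irf3 stood 1.34-fold, Trim25 1.31-fold and Ifitm2 1.27-fold higher in mean level. None of these members passed the limma threshold without the block (adjusted p under 0.05 over 12400 genes). There 0 of 32 members were called, and 1.19% of all genes tested were (0.129% higher, 1.06% lower). At an unadjusted p under 0.05 stood 6 of 32 members (18.8%, against 15.1% of all genes tested). When libraries with the same column number were compared with each other, that is, with the number as a block in limma, 13 of 32 members passed, 3 higher and 10 lower, against 22.3% of all genes tested (8.23% higher, 14.0% lower).

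Before the members, the libraries themselves were compared. Pam stood at 507, 399 and 258 TPM in induced libraries and at 92.6, 82.8 and 66.9 TPM in basal libraries, a 4.80-fold difference in means that passed in limma (adjusted p = 0.0210). The libraries numbered 3 stood apart in both groups: library 3 was the highest of its group in both groups for 11 of 32 members and the lowest in both for 9, against 25.5% and 40.6% of all genes. Corticotrope markers were present, Pomc and Tbx19 among them, with 5 of 6 above a mean of 1 TPM, while Gpr101 was listed at 0. All 10 leukocyte markers found were under a mean of 1 TPM, and their summed level ran over 0.126 to 0.774 TPM in induced and 0.232 to 1.06 TPM in basal libraries, with Cd3e and Emr1 listed at 0. Endothelial markers summed to 0.696 to 0.879 TPM in induced and 1.27 to 1.76 TPM in basal libraries, with Cdh5 and Kdr listed at 0, and fibroblast markers to 1.33 to 1.76 TPM in induced and 2.57 to 4.03 TPM in basal libraries, with Pdgfra and Dcn listed at 0. Their part in the results was not tested. The pituitary markers of other cell types summed to at most 0.261 TPM in induced and 1.19 TPM in basal libraries. In bulk RNA, fewer cells with a transcript and less of it per cell cannot be told apart.

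**Figure D1:**
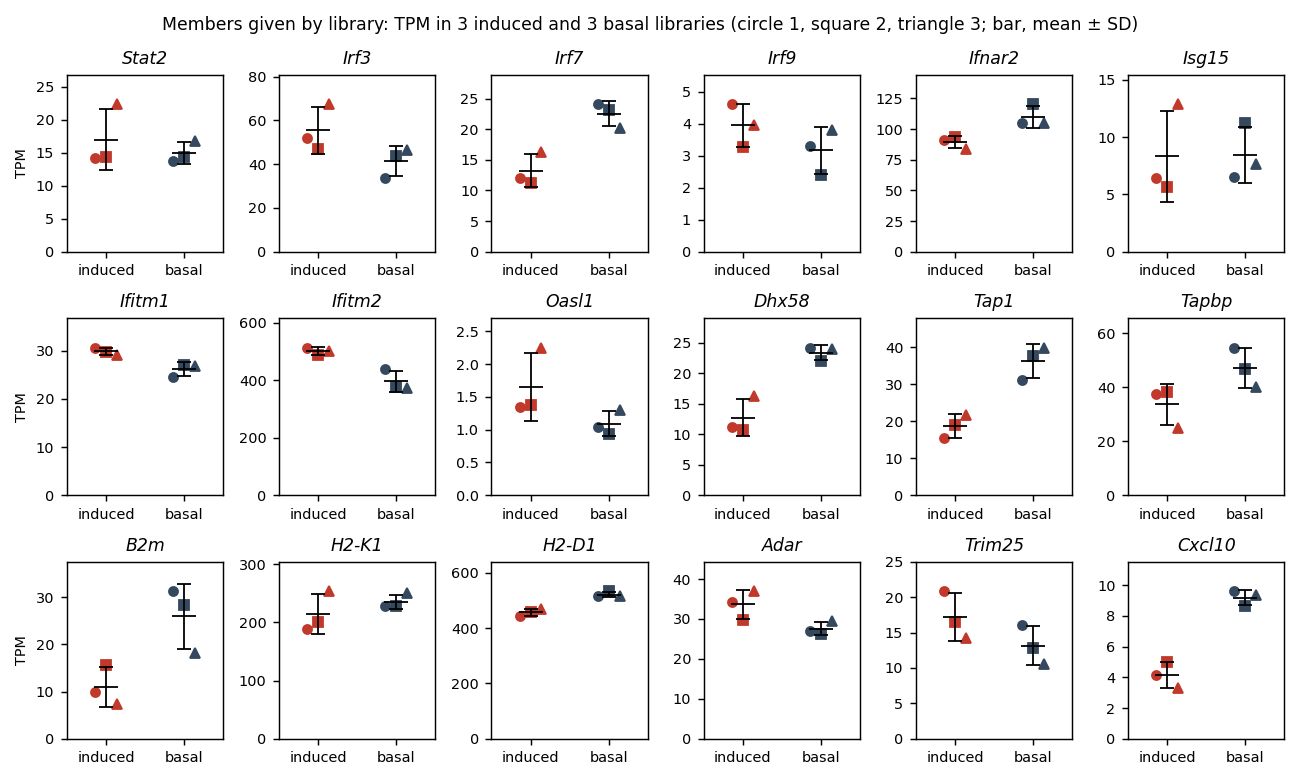
TPM of 18 members in each induced (red) and basal (dark blue) library, with each vertical axis starting at 0, symbols for the column number and bars for the mean ± SD (n = 3). Tap1, B2m, Dhx58, Irf7 and Cxcl10 show induced points wholly below basal points, and Ifitm2, Ifitm1, Irf3, Adar and Oasl1 show them wholly above.

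In the class I pathway the Tap1 subunit of the peptide transporter and the light chain B2m stood lower in induced libraries. B2m encodes beta-2-microglobulin, the invariant light chain (mm10 chromosome 2, 122147687 to 122153082). It stood at 9.96, 15.6 and 7.47 TPM in induced libraries and at 31.3, 28.4 and 18.2 TPM in basal libraries. Every induced value lay below every basal one, and library 3 was the lowest of each group. The means were 11.02 ± 4.18 TPM in induced and 26.0 ± 6.90 TPM in basal libraries (SD, n = 3 each). B2m had a log2 difference of -1.19 (SE 0.30, interval at 95% confidence -1.90 to -0.47; limma adjusted p = 0.127, and 8.96e-04 with the block). Tap1, the first subunit of the peptide transporter, lies in the major histocompatibility complex on chromosome 17 (34187556 to 34197225). It stood at 15.4, 18.97 and 21.8 TPM in induced libraries and at 31.0, 37.5 and 39.9 TPM in basal libraries, and the groups lay apart by more than the range within either. Its log2 difference was -0.92 (SE 0.18, interval -1.34 to -0.49; limma adjusted p = 0.0689, and 4.92e-04 with the block), and within column numbers 1, 2 and 3 it was -0.96, -0.95 and -0.84.

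The partner subunit Tap2 (chromosome 17, 34204479 to 34216321) is encoded close by. It stood at 18.8, 15.6 and 21.7 TPM in induced libraries and at 22.5, 17.9 and 20.1 TPM in basal libraries, with groups that overlapped. Tapasin, encoded by Tapbp, stood at 37.4, 38.3 and 25.0 TPM in induced libraries and at 54.6, 46.7 and 40.01 TPM in basal libraries. Its groups did not overlap, with the induced library numbered 3 the lowest, and it passed with the block (log2 difference -0.49; limma adjusted p = 0.339, and 0.0115 with the block). Heavy chain H2-K1 stood at 188, 200 and 254 TPM in induced libraries and at 227, 228 and 250 TPM in basal libraries. The heavy chain H2-D1 stood at 444, 458 and 468 TPM in induced libraries and at 515, 534 and 516 TPM in basal libraries. H2-K1 overlapped between groups, while H2-D1 was lower in all 3 induced libraries by a small margin (1.14-fold, log2 difference -0.19, interval -0.44 to 0.06; limma adjusted p = 0.480, and 0.0998 with the block). Log2 differences in the deposited DESeq2 table lay a median of 0.42 above those from TPM over the 195 genes it lists, for a reason that was not tested, and with that offset added the difference became 0.23 for H2-D1 and 0.28 for H2-K1. Class I heavy chain genes have near-identical copies, so their single levels are uncertain.

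Ratios within a library do not depend on how libraries were scaled, and 4 were formed after the values had been seen. The log2 ratio of Tap1 to Tap2 was -0.28, 0.28 and 0.003 in induced libraries and 0.46, 1.07 and 0.99 in basal libraries, so that Tap1 stood lower relative to Tap2 in every induced library. That of B2m to H2-D1 was -5.48, -4.87 and -5.97 in induced libraries and -4.04, -4.23 and -4.83 in basal libraries, a mean difference of -1.08. The ratio of Dhx58 to Ddx58 differed by -0.81 and that of Irf7 to Irf3 by -1.21, again with groups that did not overlap. Each of the 4 gave p = 0.1 in an exact two-sided permutation test, the smallest that 3 libraries against 3 can give, and 0.1 after Benjamini-Hochberg adjustment over the 4.

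Other class I genes were taken from a separate list of 26 names. Of 19 tested, 1 fell and 0 rose in limma, and 5 fell and 0 rose with the block. At an unadjusted p under 0.05 stood 5 of the 19, against 15.1% of all genes tested. The 5 that fell with the block are 26.3% of those tested. With the block, 14.0% of all genes tested passed as lower and 22.3% in either direction. Without it, 1.06% of all genes tested passed as lower and 1.19% in either direction. The median log2 difference of the 19 was -0.04, the same as over all genes tested (-0.04). The gene that fell without the block was H2-T10, a non-classical class I heavy chain, at 3.98, 4.38 and 3.84 TPM in induced libraries and 9.78, 13.3 and 12.7 TPM in basal libraries. It was 2.94-fold lower in mean level (log2 difference -1.34, SE 0.17; limma adjusted p = 0.0239), and the authors' deposited table from limma gives it -1.35 with an adjusted p of 0.0217. That call ended without any single library other than induced 3, with adjusted p between 0.0887 and 0.180. H2-T23, the Qa-1 heavy chain that displays signal peptides to natural killer cells, and Psmb9, the immunoproteasome subunit beside Tap1, were picked after their values were seen. H2-T23 stood at 33.6, 36.1 and 38.0 TPM in induced libraries and at 54.5, 64.2 and 71.0 TPM in basal libraries, without overlap. H2-T23 averaged 35.9 ± 2.19 TPM in induced libraries and 63.2 ± 8.28 TPM in basal libraries (SD, n = 3 each; limma adjusted p = 0.0631, and 8.37e-04 with the block). Psmb9 stood at 2.66, 5.07 and 5.0 TPM in induced libraries and at 7.74, 7.93 and 6.52 TPM in basal libraries, also without overlap. Psmb9 averaged 4.24 ± 1.37 TPM in induced and 7.39 ± 0.765 TPM in basal libraries (SD, n = 3 each; limma adjusted p = 0.211, and 0.0244 with the block). Chaperones Calr, Canx and Pdia3, the proteasome activator subunits Psme1 and Psme2 and the trimming peptidase Erap1 did not pass in either fit. H2-Ke6 stands in the list by its symbol but encodes a steroid dehydrogenase. In class II presentation 11 of 15 genes were under a mean of 1 TPM and 0 of 4 tested passed in either fit (0 at an unadjusted p under 0.05). H2-DMa, a peptide editor, averaged 1.42 ± 0.339 TPM in induced libraries and 0.901 ± 0.470 TPM in basal libraries, and the promoter factor Rfx5 4.00 ± 1.45 TPM in induced and 5.34 ± 1.21 TPM in basal libraries (SD, n = 3 each).

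**Figure D2:**
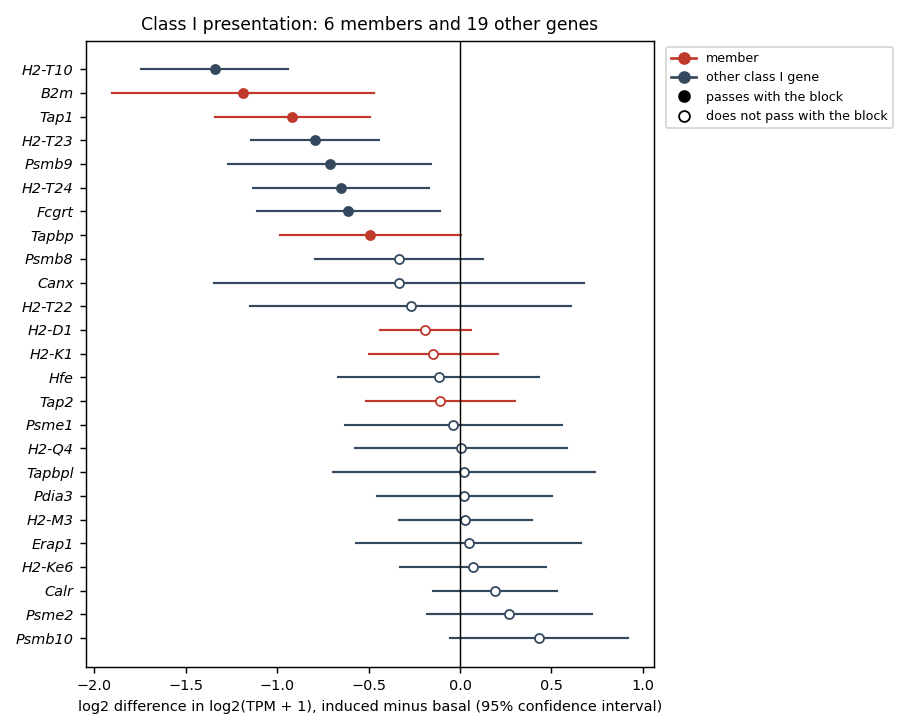
Log2 differences (induced minus basal, on log2(TPM + 1)) with 95% confidence intervals for the 6 class I members (red) and 19 other listed genes (dark blue). Points are filled where the gene passes with the block. H2-Ke6, which is in the class I list by its symbol only, is among the 19. H2-T10, B2m, Tap1, H2-T23 and Psmb9 lie at the low end and Tap2, H2-K1 and H2-D1 near 0.

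Interferon ligands were all but undetected. Of 19 ligand genes found, 17 were listed at 0 in every library, and Ifnab and Ifnz reached no more than 0.417 TPM in any library. The receptors were present throughout. Ifnar1 and Ifnar2 encode the chains of the type I receptor, and Ifngr1 and Ifngr2 those of the receptor for interferon gamma. The log2 difference was below 0 for all 4, at a median of -0.36. Ifnar2 stood at 91.2, 93.3 and 83.7 TPM in induced libraries and at 105, 120 and 105 TPM in basal libraries, without overlap (log2 difference -0.30; limma adjusted p = 0.340, and 0.0387 with the block). Ifngr1 stood at 49.6, 48.5 and 34.6 TPM in induced libraries and at 71.5, 65.6 and 47.3 TPM in basal libraries. Its groups overlapped, with the basal library numbered 3 below the induced libraries 1 and 2, while within each number the induced value was lower, and it passed with the block (log2 difference -0.46; limma adjusted p = 0.385, and 0.00736 with the block). Ifngr2 stood at 101, 89.0 and 53.2 TPM in induced libraries and at 107, 119 and 91.6 TPM in basal libraries. Its groups overlapped, and the differences within numbers 1, 2 and 3 were -0.095, -0.42 and -0.77 on log2(TPM + 1). Ifngr2 averaged 80.9 ± 24.7 TPM in induced libraries and 106 ± 13.8 TPM in basal libraries (SD, n = 3 each; limma adjusted p = 0.516, and 0.0377 with the block). Ifnar1 averaged 24.7 ± 7.66 TPM in induced and 25.8 ± 4.37 TPM in basal libraries. With the same offset added, the Ifnar2 difference became 0.12 and those of Ifngr1 and Ifngr2 -0.05 and -0.01.

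Of 17 tested genes for signalling at the receptor and its brakes, 0 passed in limma. At an unadjusted p under 0.05 stood 3 of the 17, against 15.1% of all genes tested. With the block 1 rose and 4 fell, which is 29.4% against 22.3% of all genes tested. Socs1, the feedback inhibitor of JAK kinases, stood at 1.70, 1.22 and 1.72 TPM in induced libraries and at 7.36, 8.03 and 3.27 TPM in basal libraries. It was 4.01-fold lower in mean level with groups that did not overlap (log2 difference -1.43; limma adjusted p = 0.0820, and 0.00414 with the block). Il10rb, a chain shared by receptors for interleukin 10 and lambda interferons, averaged 50.3 ± 6.40 TPM in induced libraries and 38.5 ± 1.98 TPM in basal libraries (SD, n = 3 each; limma adjusted p = 0.286, and 0.0349 with the block). Kinases Jak1, Jak2 and Tyk2 passed in neither fit.

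Among the transcription factors Irf7 and Irf3 lay on opposite sides. Irf7, the factor that amplifies the interferon response, stood at 12.1, 11.2 and 16.3 TPM in induced libraries and at 24.1, 23.2 and 20.3 TPM in basal libraries. The groups lay apart, most widely in libraries 1 and 2 (differences on log2(TPM + 1) of -0.94 and -0.98 within those numbers, and -0.29 within number 3). Irf7 had a log2 difference of -0.74 (SE 0.18; limma adjusted p = 0.115, and 0.00781 with the block). Irf3, the constitutive factor that responds to nucleic acid sensors, stood at 52.0, 47.1 and 67.5 TPM in induced libraries and at 33.7, 43.6 and 46.7 TPM in basal libraries. No induced value lay below a basal one, and the nearest were 47.1 TPM in induced and 46.7 TPM in basal libraries (log2 difference 0.41, SE 0.19; limma adjusted p = 0.390, and 0.0324 with the block). Irf9, the DNA-binding part of the STAT complex, stood at 4.61, 3.26 and 3.96 TPM in induced libraries and at 3.30, 2.38 and 3.81 TPM in basal libraries. Stat2 stood at 14.2, 14.3 and 22.4 TPM in induced libraries and at 13.8, 14.3 and 16.8 TPM in basal libraries. Both overlapped between groups, and neither passed with the block. Irf1, an activator of class I genes, averaged 47.6 ± 9.13 TPM in induced libraries and 50.8 ± 2.69 TPM in basal libraries, and its repressive relative Irf2 8.71 ± 1.99 TPM in induced and 10.8 ± 1.98 TPM in basal libraries (SD, n = 3 each), and these did not pass in either fit.

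**Figure D3:**
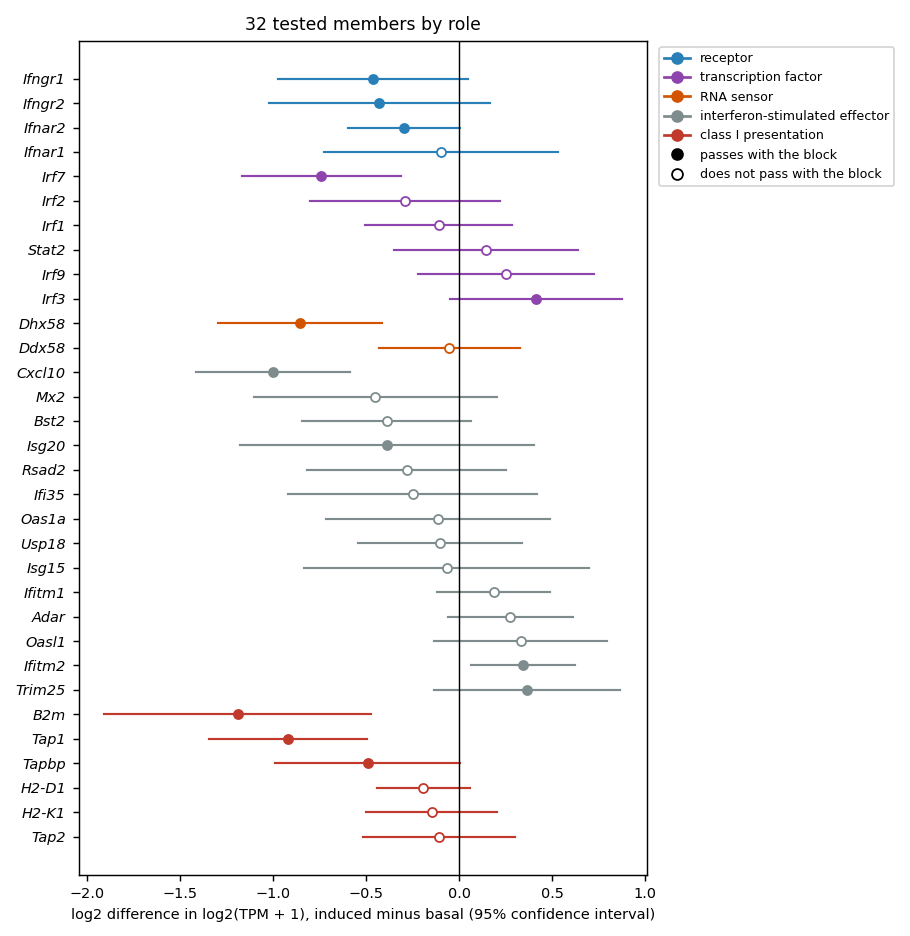
Log2 differences (induced minus basal, on log2(TPM + 1)) of the 32 tested members with 95% confidence intervals, coloured by role and filled where the member passes with the block. The 4 receptors and 6 class I genes all lie below 0, at medians of -0.36 and -0.34 (with the offset of the DESeq2 table, 2 receptors and 3 class I genes), while the 14 tested effectors lie on both sides.

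Of the 3 cytosolic RNA sensors of the RIG-I family, Dhx58, the regulatory one that lacks signalling domains, stood at 11.3, 10.7 and 16.2 TPM in induced libraries and at 24.2, 21.99 and 24.03 TPM in basal libraries. The basal values were tight and the highest induced value lay well below them (log2 difference -0.85, SE 0.19; limma adjusted p = 0.0897, and 0.00225 with the block). Ddx58, which encodes RIG-I itself, averaged 1.185 ± 0.191 TPM in induced libraries and 1.26 ± 0.0365 TPM in basal libraries (SD, n = 3 each). Ifih1 reached at most 0.0154 TPM in induced and 0.0377 TPM in basal libraries and was not tested. In the list of other sensing genes 0 of 14 passed in limma. At an unadjusted p under 0.05 stood 2 of the 14, against 15.1% of all genes tested. With the block 3 rose and 3 fell, which is 42.9% against 22.3% of all genes tested (8.23% higher, 14.0% lower). Tmem173, the STING adaptor of DNA sensing, averaged 13.5 ± 2.12 TPM in induced libraries and 20.2 ± 2.90 TPM in basal libraries (SD, n = 3 each; limma adjusted p = 0.201, and 0.00628 with the block). Rnf135, a ubiquitin ligase that activates RIG-I, averaged 7.85 ± 1.27 TPM in induced and 5.30 ± 1.30 TPM in basal libraries (SD, n = 3 each; limma adjusted p = 0.312, and 0.0223 with the block). Trim25, another ligase tied to RIG-I and a member, stood at 20.8, 16.4 and 14.3 TPM in induced libraries and at 16.1, 12.8 and 10.54 TPM in basal libraries. The groups overlapped, while within each column number the induced value was higher by 0.33 to 0.40 on log2(TPM + 1) (log2 difference 0.36; limma adjusted p = 0.508, and 0.0348 with the block).

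Among the effectors, Cxcl10, a chemokine that draws T cells, had the smallest p of the tested members without the block. It stood at 4.16, 4.98 and 3.28 TPM in induced libraries and at 9.61, 8.62 and 9.35 TPM in basal libraries. The groups were far apart for their spread, with means of 4.14 ± 0.848 TPM in induced and 9.19 ± 0.515 TPM in basal libraries (SD, n = 3 each), 2.22-fold lower in induced libraries (log2 difference -1.0, SE 0.18, interval -1.41 to -0.59; limma adjusted p = 0.0540, and 0.00234 with the block). Without a trend in the variance its adjusted p in limma was 0.0481, and over all alternatives it ran between 0.00234 and 0.265. Isg20, an exonuclease that degrades viral RNA, stood at 175, 173 and 378 TPM in induced libraries and at 251, 263 and 389 TPM in basal libraries. Library 3 was the highest in each group, where the difference within the number was -0.04 on log2(TPM + 1), against -0.52 and -0.60 within numbers 1 and 2 (log2 difference -0.39, or 0.033 with the offset added; limma adjusted p = 0.694, and 0.0383 with the block).

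Of the genes for interferon-induced membrane proteins, which block viral entry, Ifitm2 and Ifitm1 stood higher in induced libraries, and only Ifitm2 passed with the block. Ifitm2 stood at 514, 488 and 503 TPM in induced libraries and at 438, 378 and 372 TPM in basal libraries. Every induced value was above every basal one (log2 difference 0.34, SE 0.12, interval 0.06 to 0.62; limma adjusted p = 0.233, and 0.0161 with the block). Ifitm1 stood at 30.7, 29.8 and 29.1 TPM in induced libraries and at 24.5, 27.1 and 26.8 TPM in basal libraries, a 1.14-fold difference in means that did not pass with the block (limma adjusted p = 0.596, and 0.209 with the block). Ifitm3 was listed at 0 in all 6 libraries. These genes have close copies, so their single levels are uncertain. Adar, which edits adenosine in double-stranded RNA, stood at 34.3, 29.8 and 37.0 TPM in induced libraries and at 27.0, 26.3 and 29.4 TPM in basal libraries. Oasl1, an oligoadenylate synthetase-like protein, stood at 1.34, 1.38 and 2.25 TPM in induced libraries and at 1.047, 0.932 and 1.30 TPM in basal libraries. In both genes the groups touched closely without overlap, and neither passed in either fit (limma adjusted p = 0.441 for Adar and 0.522 for Oasl1, and 0.0703 and 0.237 with the block).

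The remaining effectors showed no difference past the threshold in either fit. Isg15, the ubiquitin-like modifier often read as a gauge of interferon signalling, stood at 6.47, 5.62 and 12.9 TPM in induced libraries and at 6.49, 11.2 and 7.62 TPM in basal libraries. Its groups overlapped fully, and the interval of the log2 difference, -0.83 to 0.70, left room for change in either direction. Usp18, the protease that removes it and restrains the receptor, averaged 17.8 ± 2.19 TPM in induced libraries and 19.3 ± 3.86 TPM in basal libraries. Bst2, which tethers budding virus, averaged 6.62 ± 1.25 TPM in induced and 8.96 ± 1.43 TPM in basal libraries, and Rsad2, which encodes viperin, 4.17 ± 1.25 TPM in induced and 5.18 ± 0.793 TPM in basal libraries (SD, n = 3 each). Mx2, Ifi35 and Oas1a also overlapped between groups. The RefSeq annotation gives Mx1 and Mx2 as transcribed pseudogenes. At levels too low for the test, Mx1 stood at 0.210, 0.264 and 0.184 TPM in induced libraries and at 0.681, 0.361 and 0.471 TPM in basal libraries. Ifit1 stood at 0.0684, 0 and 0.0967 TPM in induced libraries and at 0.154, 0.199 and 0.160 TPM in basal libraries. Neither gene's groups overlapped, with induced below basal. Rtp4 reached 0.102 TPM in induced and 0.262 TPM in basal libraries, Ifit2 was above 0 in 1 basal library alone, and Ifit3 was listed at 0 in all libraries.

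Of 35 other interferon-stimulated genes tested from a list of 70 names, 0 passed in limma. At an unadjusted p under 0.05 stood 5 of the 35, against 15.1% of all genes tested. With the block 2 rose and 5 fell, which is 20.0% against 22.3% of all genes tested. Their median log2 difference was -0.05, and 32 of the 67 genes found were under a mean of 1 TPM, 19 of them listed at 0. Slfn5, a member of the Schlafen family, stood at 6.41, 10.2 and 7.45 TPM in induced libraries and at 13.8, 14.6 and 15.8 TPM in basal libraries. Nmi, a binding partner of STAT factors, stood at 13.2, 18.4 and 21.7 TPM in induced libraries and at 11.8, 9.05 and 11.8 TPM in basal libraries. Slfn5 stood lower and Nmi higher in every induced library than in any basal one (limma adjusted p = 0.105 for Slfn5 and 0.220 for Nmi, and 0.00379 and 0.0193 with the block). Xaf1, a pro-apoptotic antagonist of the inhibitor XIAP named after its value was seen, stood at 8.42, 13.97 and 10.6 TPM in induced libraries and at 16.6, 20.5 and 23.6 TPM in basal libraries. Every induced value of Xaf1 lay below every basal one, and it averaged 11.0 ± 2.80 TPM in induced libraries and 20.2 ± 3.50 TPM in basal libraries (SD, n = 3 each; limma adjusted p = 0.136, and 0.00278 with the block).

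Taken over all 32 tested members, 24 had a negative log2 difference, or 75.0%, against 55.1% of all genes tested. The groups did not overlap in 13 members, 8 with induced below basal (25.0%, against 12.6% of all genes) and 5 above (15.6%, against 9.04%). Within the column numbers, all 3 induced values were lower for 15 members (46.9%, against 32.6%) and all 3 were higher for 8 (25.0%, against 23.6%). The median log2 difference of the members was -0.17 and that of all genes tested -0.04. Adding the offset of 0.42 from the deposited DESeq2 table moves the median of all genes to 0.36 and that of the members to 0.19, and leaves 10 members negative. B2m, Tap1, Cxcl10, Dhx58 and Irf7 kept negative differences with it added, at -0.80, -0.51, -0.65, -0.46 and -0.34, whereas Irf3, Ifitm1, Ifitm2 and Adar then passed in limma as higher. Those 4 are 12.5% of the members, against 15.0% of all genes called higher with the offset.

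**Figure D4:**
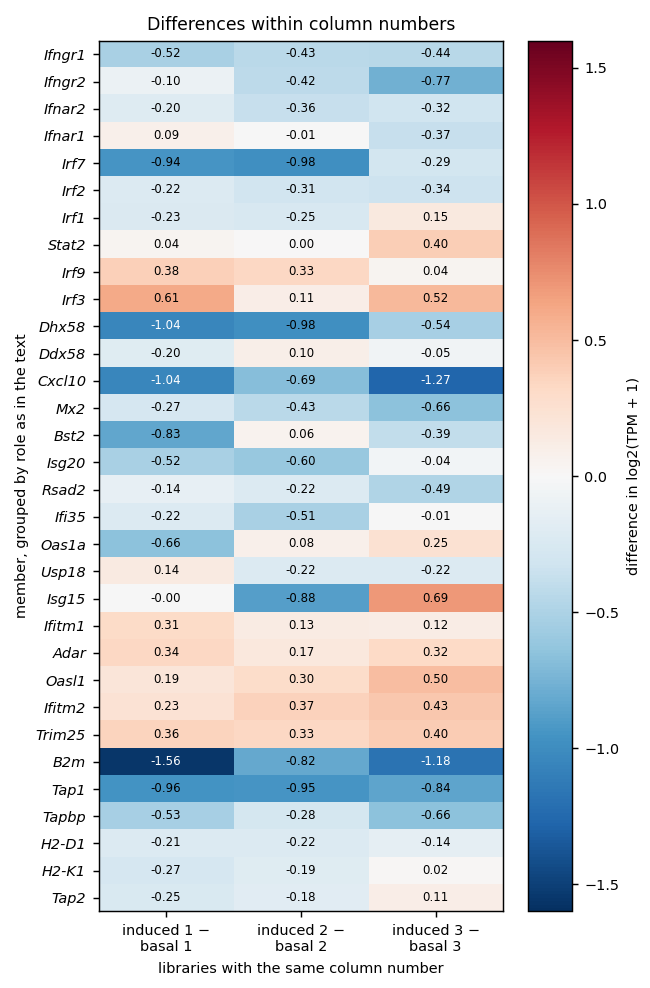
Differences in log2(TPM + 1) between the induced and the basal library with the same column number, for each of the 32 tested members (rows, ordered by role) and each number (columns), blue where the induced library is lower. B2m, Tap1, Cxcl10 and Dhx58 are negative in every column, and Isg15 is near 0, -0.88 and 0.69.

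In the authors' deposited table from Cuffdiff, 6 members appear, all lower in induced cells: B2m, Dhx58, Tap1, Irf7, Ifngr1 and Tapbp. That is 18.8% of the 32 tested, against 7.97% of all genes tested that this table lists as lower, while 0 members and 4.51% of all genes are listed there as higher. The authors' deposited table from Cuffdiff gives B2m 5.76 FPKM in induced and 13.1 FPKM in basal cells, with a log2 difference of -1.19, and Tap1 9.58 FPKM in induced and 18.2 FPKM in basal cells, with -0.93 (q = 4.14e-04 for each). In the authors' deposited table from DESeq2, 1 member appears, Ifitm2, with a log2 difference of 0.76 and an adjusted p of 5.05e-11, beside 1.57% of all genes tested. Log2 differences in that table lay a median of 0.42 above those from TPM, where Ifitm2 had 0.34 (limma adjusted p = 0.233). In the authors' deposited table from limma 0 members appear, beside 1.18% of all genes tested.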

How the data were processed

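RNA from 3 induced and 3 basal AtT-20 iPAM wells was made into AmpliSeq Library PLUS libraries and run in 1 lane, with 16.6 M reads stated for each, per the labels' protocols. The submitters' processing notes name limma, DESeq2, Cuffdiff 2.2.0 and Cufflinks 2.2.0, with TopHat2 2.0.9 over Bowtie2 2.1.0.0, and the build mm10. Their settings were not given in the sources that were used. The deposited sheet is named for FPKM, but its columns each sum to 1000000, so the values are TPM and keep no depth. The authors' deposited tables give FPKM, log2 fold changes and q-values or adjusted p-values, per the file headers. Columns were matched to groups only, since they carry numbers where the labels carry letters.

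Genes whose mean reached 1 TPM were compared as log2(TPM + 1) with limma 3.58.1 in R 4.3.3 (trend, Benjamini-Hochberg over 12400 genes). The code was tested on simulated data. The added 1 understates changes of low genes. Fold changes are ratios of mean TPM. Intervals are 95% confidence intervals. Deviations from the group means of libraries with equal numbers correlated at 0.46, 0.18 and 0.72 for numbers 1, 2 and 3, so the number was used as a replicate block beside the unblocked test, although the labels do not tie the numbers to a shared origin and induced 2 correlated more with basal 1 (0.32). Motifs were searched on both strands of RefSeq windows. The members and lists were chosen with earlier results of these data known. Values by library are given for members past the threshold or without overlap, for the 3 highest and 3 lowest tested members and for Irf7, Irf9, Stat2, Isg15, Ifitm3, B2m, H2-K1 and H2-D1. Ifngr1, Ifngr2 and Isg20, which passed with the block, were added, as was any gene said to be picked after its value was seen. Tap2 meets none of these rules and was added as the partner of Tap1. Means of Psmb8 and Psmb10, the other immunoproteasome subunits of the list, were added beside Psmb9. For the other lists the genes past the threshold, or otherwise the smallest p in each direction, are named. Alternatives were other pseudocounts, filters, scalings, variance moderation and left-out libraries.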

Additional observations from a re-analysis of the deposited data

How the results depend on the processing

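The count of members called was 0 in the test as reported and also with a pseudocount of 0.1, no filter, a filter at 5 TPM, quantile normalization, the median ratio and robust moderation. It was 1 without a trend (Cxcl10), 4 with the DESeq2 table's offset, 13 with the replicate block and 6 without both libraries numbered 3, and ran between 0 and 3 when single libraries were left out. Without induced 3 the 3 were Irf7, Dhx58 and Tap1, and without both libraries numbered 3 B2m, Cxcl10 and Isg20 joined them. Over all genes the count of 148 became 93 with a filter at 5 TPM, 1995 with the offset (1859 higher and 136 lower), 2761 with the replicate block (1021 higher and 1740 lower) and 688 without both libraries numbered 3, and ran between 0 and 255 when single libraries were left out: 0 without basal 1, basal 2 or induced 1 (1400, 1130 and 1562 at an unadjusted p under 0.05), 1 without induced 2, 15 without basal 3 and 255 without induced 3. Quantile normalization gave 28 higher and 93 lower, against 16 higher and 132 lower. In the other lists 1 gene was called, against 10 with the offset (8 higher and 2 lower), 23 with the block, 3 without both libraries numbered 3, and between 0 and 1 without single libraries. The members' median of -0.17 became 0.19 with the offset and -0.25 without both libraries numbered 3, and ran between -0.23 and -0.15 without single libraries. Of the 33 genes followed, 27 kept their sign in every alternative. With the offset Ifnar2 became 0.12, Isg15 0.31, H2-K1 0.28, H2-D1 0.23 and Isg20 0.033, and Isg15 became 0.030 with quantile normalization. Without single libraries Isg15 ran between -0.39 and 0.14 and Stat2 between -0.058 and 0.25. The cause of these changes was not tested. Leaving out libraries cannot reverse genes whose groups do not overlap, and the block leaves every difference as it is. The values carry no depth, so no limit of detection can be given for genes listed at 0.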
